A study of Mus musculus with 10 samples.

Results

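Cholesterol and fatty acid synthesis was followed through 34 genes in the pancreatic islets of 10 mice. The genes were taken from a list of enzymes and regulators of both pathways, and all probe sets whose array annotation gives 1 of these 34 symbols were used. That gave 80 of the 45037 probe sets on the array, a probe set being the group of short probes that reports 1 transcript. Those with log2 values over 4 in 5 or more mice were compared: 55 of the 80, among 18567 in all, which measured 33 of the 34 genes. Mvd, the mevalonate decarboxylase, was not measured, since its brightest probe set read 3.13 to 3.53. The list held 6 genes of the mevalonate arm, 11 of the sterol arm, 5 regulators, 5 genes of fatty acid supply and synthesis and 7 desaturases and elongases.

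The donors of the islets were all female, 5 weeks old and littermates, with 5 Men1 heterozygotes and 5 wildtype mice, of a strain labelled C57 on a 129 background. Men1 encodes menin, a tumour suppressor of endocrine tissues, and the labels do not say which portion of it the heterozygous mice lack. Each mouse gave 1 RNA sample of about 100 islets, so that replicates are separate mice, and 100 ng of RNA were amplified over 2 cycles before hybridisation. The heterozygous mice still carry 1 wildtype copy of Men1, and all islet cell types of a mouse were pooled.

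Cholesterol is built from acetyl-CoA through mevalonate, isoprenoid and squalene intermediates, and fatty acids from the same acetyl-CoA through malonyl-CoA. Both pathways are driven by SREBP transcription factors, which are held in the endoplasmic reticulum by Insig proteins and carried to the Golgi by Scap when sterols are low. Sterol enzymes therefore tend to be transcribed together in many tissues. In beta cells, cholesterol is known as a component of insulin granules and of the plasma membrane where they are released.

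The promoters of members whose levels are described below are shown here because SREBPs bind DNA beside NF-Y, whose site is the CCAAT box. RefSeq promoter windows of build GRCm38.p6, holding 250 bases before to 50 after a gene's start, were found for 28 of the 34 members, and only the 250 upstream bases were searched, on both strands. In each line below, printed 5′ to 3′ on the gene's strand, capitals mark CCAAT or its reverse complement ATTGG and, in Hmgcs1 alone, the sterol element TCACNCCAC.
Hmgcs1, chr13:119690101-119690335, plus strand: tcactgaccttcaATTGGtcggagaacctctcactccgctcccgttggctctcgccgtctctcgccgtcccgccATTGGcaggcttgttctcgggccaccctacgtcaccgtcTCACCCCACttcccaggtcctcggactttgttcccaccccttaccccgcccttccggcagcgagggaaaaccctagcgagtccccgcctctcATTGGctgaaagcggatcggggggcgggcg
Idi1, chr13:8885536-8885605, plus strand: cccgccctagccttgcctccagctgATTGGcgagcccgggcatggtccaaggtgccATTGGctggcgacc
Cyp51, chr5:4104698-4104751, minus strand: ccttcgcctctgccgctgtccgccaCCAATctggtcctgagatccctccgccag
Msmo1, chr8:64733604-64733763, minus strand: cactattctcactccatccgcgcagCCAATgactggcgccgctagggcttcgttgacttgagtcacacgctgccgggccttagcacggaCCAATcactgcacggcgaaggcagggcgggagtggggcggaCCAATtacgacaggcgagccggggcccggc
Fasn, chr11:120824577-120824662, minus strand: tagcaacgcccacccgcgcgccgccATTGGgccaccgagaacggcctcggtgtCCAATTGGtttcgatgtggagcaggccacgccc
Srebf1, chr11:60222718-60222772, minus strand: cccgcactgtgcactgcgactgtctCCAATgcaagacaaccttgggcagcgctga

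The CCAAT box stood in 23 of the 28 members' windows (82.1%), against 37.5% of the windows of all 27025 genes. Among genes measured in these islets it stood in 22 of 27 members (81.5%) and in 40.5% of 8575 genes. The GC box GGGCGG was found in 22 of the 28 members (78.6%) and in 35.4% of all genes, but in 65% of the genes measured here. The sterol element was found in 1 member, Hmgcs1 (3.57%, against 1.22% of all genes), and the E-box TCACNTGA in 1 member, Insig2 (3.57%, against 3.98%). Boxes on opposite strands can overlap, as in Fasn, each motif was counted on its own, a match is not a bound site, and other spellings of the sterol element were not searched. Among the sterol genes with a window, the CCAAT box stood in 8 of 8 whose levels followed the other sterol genes over the mice at r above 0.7 (a measure described below) and in 5 of 5 of the rest. The promoters of Fdps, Fdft1, Sqle, Scd1, Scd2 and Fads1 were not used here.

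Of the whole data set, array medians ran from 3.28 to 3.40, and each array held between 18458 and 18890 values over 4. Men1 read 6.89 ± 0.39 (SD) in the wildtype mice and 6.42 ± 0.30 (SD) in the heterozygous mice, n = 5 each, a difference of -0.47 (SE 0.20) whose unadjusted limma p was 0.0396. The beta cell markers, 8 of 8 measured, averaged 12.27 to 13.04 in wildtype and 12.38 to 13.01 in heterozygous mice. Acinar markers were also bright, as 9 of 14 were measured and averaged 16.00 to 16.38 in wildtype and 15.79 to 16.20 in heterozygous mice. Heterozygous mice 2 and 5 stood apart in lymphocyte markers, of which 2 of 11 were measured, with list means of 5.995 and 5.69 against 3.36 to 4.66 in the other 8 mice. Apoa1 and Apob, listed as hepatocyte markers and not kept by the filter, read 11.71 and 7.43 in heterozygous mouse 2. In the other mice they read 2.44 to 5.95 and 2.75 to 2.85. The source of these signals was not tested. Stromal markers had the lower mean in heterozygous islets for 10 of 10 genes (median difference -0.77, list means 10.002 to 10.84 in wildtype and 9.02 to 10.88 in heterozygous mice), and 6 of them reached an unadjusted limma threshold of 0.05. Endothelial markers were lower for 6 of 7 (2 at that threshold) and myeloid markers for 5 of 5 (2), with 0 of the 3 lists' genes past the adjusted threshold. Heterozygous mouse 5 was also highest on the first principal component of all probe sets (42.0, 27.6% of the variance), with wildtype mouse 2 and heterozygous mouse 3 lowest (-35.7 and -33.6). Because whole islets were measured, fewer cells of a type and less RNA per cell cannot be told apart. Each difference below is the heterozygous mean minus the wildtype mean, in log2 units, and levels of different genes are not compared, since probe sets differ in brightness.

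No cholesterol or fatty acid synthesis gene was called different between the genotypes. By limma's moderated test with Benjamini-Hochberg adjustment over all 18567 probe sets, an adjusted p of 0.05 was reached by 0 of 55 member probe sets and by 0 of all (0%). At an unadjusted p of 0.05, 0 member probe sets passed and 760 of all did (4.09%). For 0 of the 33 measured genes did the groups fail to overlap, against 0.700% of all probe sets. The heterozygous mean was the higher for 26 of the 33 genes and for 39 of the 55 member probe sets, beside 56.4% of all probe sets. The median difference over the 33 genes was 0.063, beside 0.022 over all probe sets. The adjusted p of every member probe set was 0.9999.

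**Figure D1:**
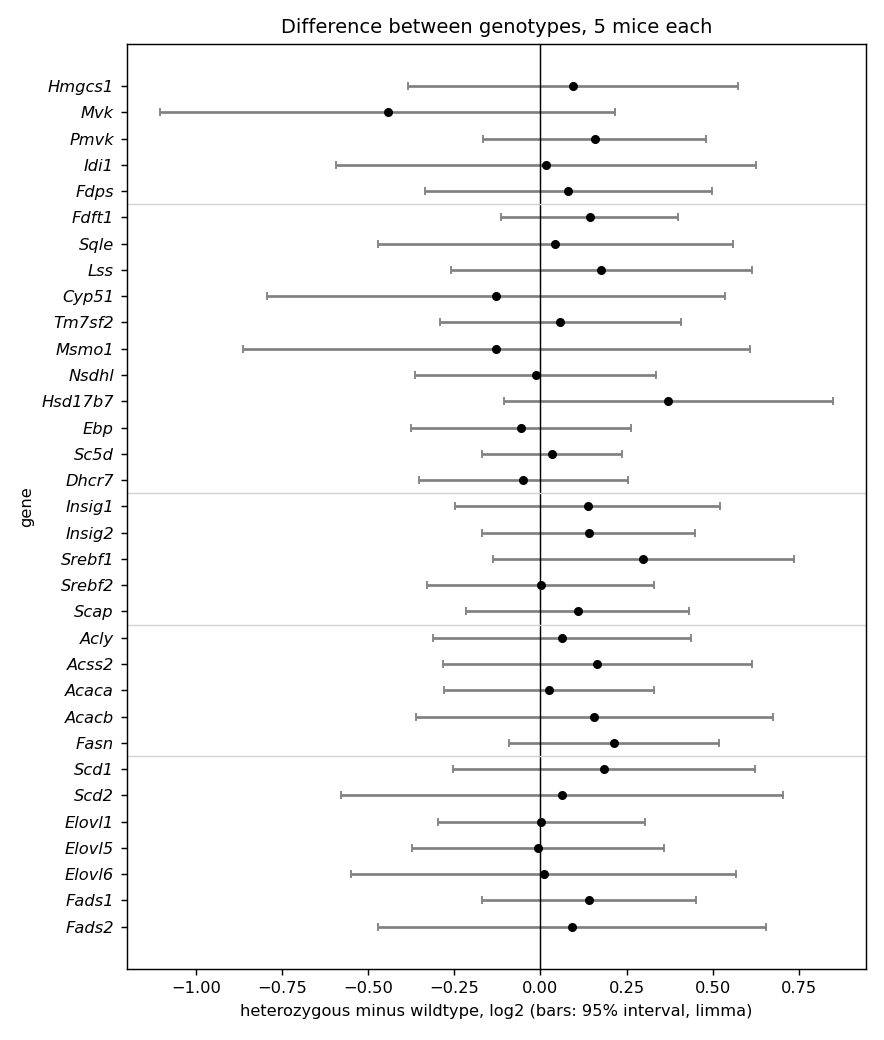
Difference between heterozygous and wildtype islets (5 mice each) for the 33 measured genes on the log2 scale, with points for the difference and bars for limma's 95% interval; grey lines part the mevalonate arm, sterol arm, regulators, fatty acid supply and desaturation groups. Every interval spans 0, from the narrow one of Sc5d (-0.17 to 0.24) to the wide one of Msmo1 (-0.86 to 0.61).

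The mevalonate arm turns acetyl units into isoprenoids, and 4 of its 5 measured genes had the higher mean in heterozygous islets, with a median difference of 0.081. Hmgcs1, the synthase that makes HMG-CoA, read 10.54, 10.68, 10.44, 10.64 and 10.79 in wildtype mice 1 to 5 and 10.60, 10.38, 10.11, 11.09 and 11.38 in heterozygous mice 1 to 5. Its heterozygous values lay on both sides of the wildtype range, and the difference was 0.10 (SE 0.22, 95% interval -0.38 to 0.57). Idi1, the isomerase of the isoprenoid building blocks, read 9.14, 8.62, 8.66, 8.84 and 8.87 in wildtype and 8.79, 8.42, 8.06, 9.14 and 9.79 in heterozygous mice. Heterozygous mice 2 and 3 lay below every wildtype mouse and mouse 5 above, with mouse 4 level with the highest of them, and the difference was 0.02 (SE 0.28).

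Mevalonate kinase, Mvk, showed the opposite layout, with the spread on the wildtype side, but its probe set is dim. Its other probe set averaged 2.71 and was not kept, and a stricter filter of 6 left Mvk out. The probe set used read 6.12, 5.09, 5.20, 5.01 and 6.72 in wildtype and 5.09, 5.20, 5.23, 5.21 and 5.19 in heterozygous mice. Wildtype mice 1 and 5 were high and the other 8 mice lay together, and the difference was -0.44 (SE 0.30, unadjusted limma p = 0.166; exact two-sided permutation p = 0.397). The phosphomevalonate kinase Pmvk read 7.83, 7.62, 7.70, 7.63 and 7.75 in wildtype and 7.94, 7.73, 7.44, 7.88 and 8.33 in heterozygous mice, a difference of 0.16 (SE 0.15). Fdps, which makes farnesyl diphosphate, lay between 5.65 and 6.47 in wildtype and between 5.70 and 6.69 in heterozygous mice.

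In the sterol arm, which leads from squalene to cholesterol, 6 of 11 genes had the higher and 5 the lower mean in heterozygous islets, with a median difference of 0.032. Hsd17b7, a sterol keto-reductase, had the smallest p of all members and read 6.49, 6.53, 5.98, 6.31 and 6.48 in wildtype and 6.85, 6.03, 6.48, 7.06 and 7.23 in heterozygous mice. Heterozygous mice 1, 4 and 5 exceeded every wildtype mouse while mouse 2 lay near the lowest, and the difference was 0.37 (SE 0.22, unadjusted limma p = 0.114; exact permutation p = 0.143). Fdft1, the squalene synthase, read 10.41, 10.51, 10.26, 10.33 and 10.66 in wildtype and 10.43, 10.36, 10.58, 10.79 and 10.73 in heterozygous mice. Its difference was 0.14 (SE 0.12), and the groups overlapped.

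Msmo1, the methylsterol oxidase, varied most over the 10 mice of all members (SD 0.570). It read 9.24, 8.84, 9.19, 9.10 and 8.76 in wildtype and 9.27, 8.13, 8.03, 9.05 and 9.997 in heterozygous mice. Its 5 heterozygous mice thus spanned a 3.90-fold range against 1.40-fold in wildtype, around means that differed by -0.13 (SE 0.33). A dimmer probe set of Msmo1 had the reverse layout, with 1.51-fold in heterozygous and 2.71-fold in wildtype mice. Cyp51, the lanosterol demethylase, read 7.72, 7.46, 7.28, 7.48 and 8.04 in wildtype and 7.92, 6.92, 6.53, 7.79 and 8.17 in heterozygous mice, ranges of 1.70-fold and 3.12-fold. A dimmer probe set of Cyp51 gave a difference of 0.43 (SE 0.36) where the one used here gave -0.13 (SE 0.30), so the direction of its mean is not settled.

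Squalene epoxidase, Sqle, read 8.90, 8.46, 8.88, 8.90 and 8.91 in wildtype and 8.89, 8.34, 8.29, 9.17 and 9.57 in heterozygous mice. The same heterozygous mice were low (2 and 3) and high (4 and 5) as for Hmgcs1 and Idi1. On the probe sets used, the remaining sterol enzymes varied less: the SD over 10 mice was below that of Sqle for Lss, Tm7sf2, Nsdhl, Ebp, Sc5d and Dhcr7. Their differences ran from -0.06 for Ebp, a sterol isomerase, to 0.18 for Lss, the lanosterol synthase. A dimmer probe set of Lss varied more than Sqle (SD 0.54 against 0.39). It spanned a 3.61-fold range in heterozygous and a 1.58-fold range in wildtype mice, lowest in heterozygous mouse 3 and highest in mouse 4. Dhcr7, which makes cholesterol in the last step of one branch, differed by -0.05 (SE 0.14). For Sc5d, the sterol desaturase, a further probe set turned the sign (-0.05 beside 0.03). That probe set had an SD of 0.34 in heterozygous and 0.03 in wildtype mice, beside 0.10 and 0.13 on the one used.

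**Figure D2:**
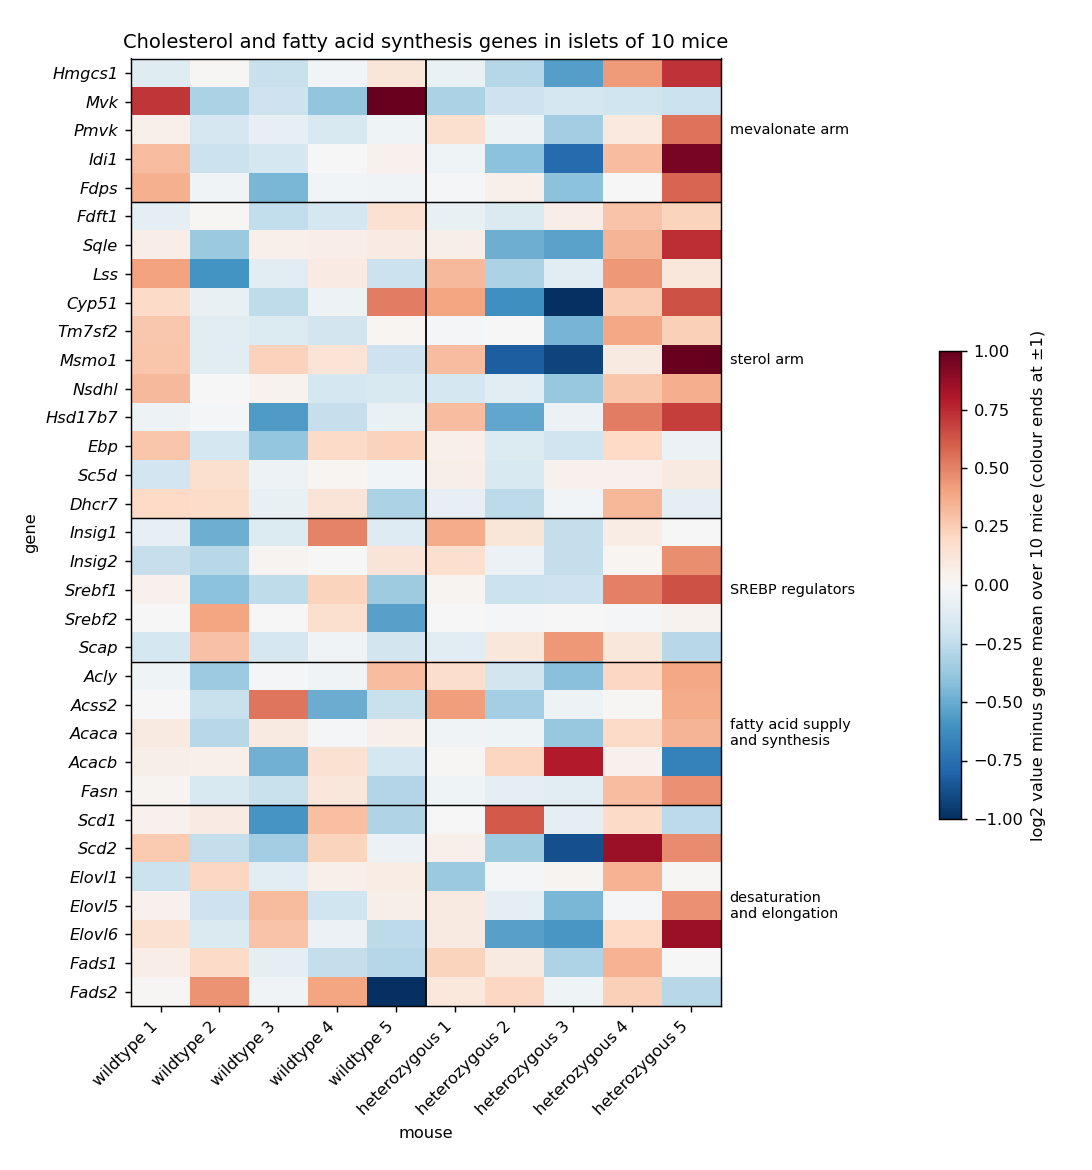
Each of the 33 measured genes (rows, grouped by role) in each of the 10 mice (columns), as the log2 value minus the gene's mean over the 10 mice; red is above and blue below that mean. Most sterol rows are blue in heterozygous mice 2 and 3 and red in 4 and 5, whereas Mvk is dark in wildtype mice 1 and 5 and Srebf2 is pale in every heterozygous mouse.

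All 5 regulators had the higher mean in heterozygous islets, by 0.00 to 0.30. Srebf1, which encodes the SREBP forms that drive fatty acid genes, read 9.16, 8.71, 8.87, 9.34 and 8.76 in wildtype and 9.14, 8.90, 8.91, 9.62 and 9.76 in heterozygous mice. Mice 4 and 5 lay above every wildtype mouse and the other 3 within their range, and the difference was 0.30 (SE 0.20, unadjusted limma p = 0.161; exact permutation p = 0.206). Srebf2, the SREBP of sterol genes, read 5.86, 6.26, 5.86, 6.02 and 5.32 in wildtype and 5.85, 5.85, 5.86, 5.85 and 5.89 in heterozygous mice. It is dim, 7 of its 10 arrays lay within 0.1 of the median, and the spread in heterozygous mice was 0.02 beside 0.34 in wildtype.

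Insig1 and Insig2 retain SREBPs in the endoplasmic reticulum, and Insig1 is itself a target of them. Insig1 ran from 9.18 to 10.16 in wildtype and from 9.43 to 10.04 in heterozygous mice, a difference of 0.14 (SE 0.17). Insig2 differed by 0.14 (SE 0.14), and a further probe set of it by -0.05. Scap, the escort of SREBPs, differed by 0.11 (SE 0.15).

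Each of the 5 genes of fatty acid supply and synthesis had the higher mean in heterozygous islets, with a median difference of 0.16. Fasn, the fatty acid synthase, read 7.38, 7.20, 7.13, 7.47 and 7.06 in wildtype and 7.31, 7.27, 7.25, 7.66 and 7.82 in heterozygous mice. The difference was 0.21 (SE 0.14, unadjusted limma p = 0.152; exact permutation p = 0.183), and only heterozygous mice 4 and 5 exceeded the wildtype range. The differences of Acss2, the acetyl-CoA synthetase, and Acacb, a mitochondrial acetyl-CoA carboxylase, were both 0.16, with SEs of 0.20 and 0.23. Acly, the citrate lyase that supplies acetyl-CoA, and Acaca, the carboxylase that makes malonyl-CoA for synthesis, differed by 0.06 and 0.03.

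Among the desaturases and elongases, 6 of 7 had the higher mean, with a median difference of 0.06. Scd2, a stearoyl-CoA desaturase, read 12.22, 11.72, 11.61, 12.18 and 11.89 in wildtype and 12.01, 11.60, 11.08, 12.82 and 12.43 in heterozygous mice. Heterozygous mice spanned a 3.34-fold and wildtype mice a 1.53-fold range. Fads2, the desaturase of polyunsaturated fatty acids, read 6.98, 7.42, 6.94, 7.37 and 5.92 in wildtype and 7.08, 7.18, 6.93, 7.21 and 6.70 in heterozygous mice, with wildtype mouse 5 far below the rest. Elovl6, which elongates palmitate, ran from 6.62 to 7.17 in wildtype and from 6.30 to 7.74 in heterozygous mice. Scd1 differed by 0.18 (SE 0.20) and Fads1 by 0.14 (SE 0.14). Further probe sets gave the opposite sign, with -0.05 for Scd2, -0.04 and -0.08 for Elovl1 and -0.08 for both of Fads2. Elovl5 was at -0.01 and -0.06 on its 2 probe sets.

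**Figure D3:**
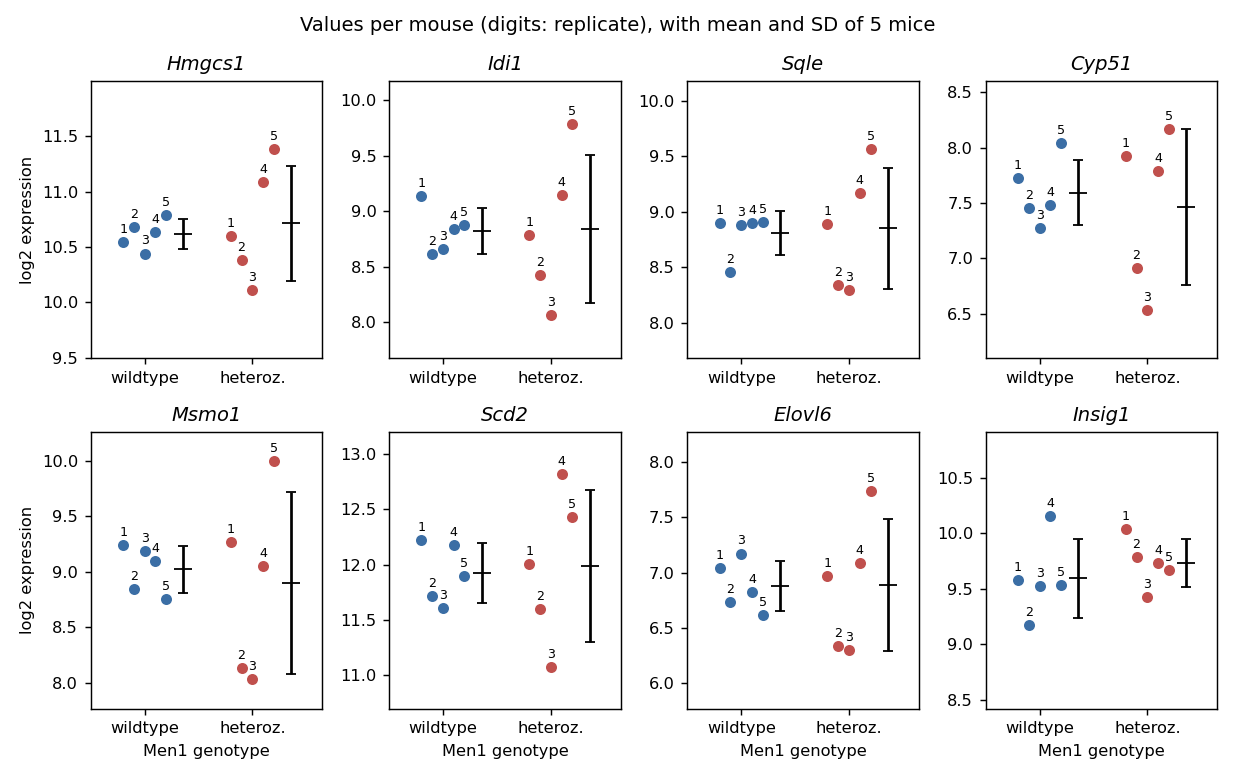
Log2 values of single members in the 5 wildtype and 5 heterozygous mice, 1 point per mouse, with the group mean. Digits name the replicate and bars are the SD. The heterozygous points of Msmo1, Cyp51, Idi1 and Scd2 lie wide around a mean close to that of wildtype, with mice 2 and 3 low, and those of Insig1 do not.

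Many of these genes were spread more widely among heterozygous than among wildtype mice, which is a description, since the difference in spread was not tested. The SD was larger in heterozygous than in wildtype mice for 11 of 16 sterol genes and 9 of 12 fatty acid genes, beside 51.9% of all probe sets. It was more than 2-fold larger for 7 of the 16 sterol genes, Msmo1, Idi1 and Hmgcs1 among them, beside 16.0% of all. The same held for 3 of 12 fatty acid genes and 0 of 5 regulators. Many sterol genes rose and fell together over the same mice, so these counts are not of independent genes. The median SD of the sterol genes was 0.21 in wildtype and 0.33 in heterozygous mice, and over all probe sets it was 0.23 in both. Leaving out heterozygous mouse 2, 3, 4 or 5 in turn left 11 of 16 sterol genes more variable in heterozygous mice, beside 43.1% to 51.9% of all probe sets. Without both mouse 3 and mouse 5 it was 12 of 16, beside 38.6%.

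A sterol score was formed for each mouse as the mean of the 16 measured sterol genes after centring each on its own mean over the 10 mice. It was 0.19, -0.11, -0.17, -0.05 and 0.09 in wildtype mice 1 to 5 and 0.05, -0.28, -0.37, 0.24 and 0.41 in heterozygous mice 1 to 5. Both the 2 lowest and the 2 highest scores were those of heterozygous mice, and the group means, -0.01 ± 0.15 and 0.01 ± 0.33 (SD, n = 5 each), differed by 0.02. With the stricter filter of 6, which left the dim Mvk out of the score, they differed by 0.053. In heterozygous mouse 2, 1 of the 16 sterol genes lay above its own mean and in mouse 3, 2 did, whereas 14 did in mouse 4 and 13 in mouse 5. The same score over the 12 fatty acid genes was 0.04, -0.05, -0.06, 0.02 and -0.18 in wildtype and 0.06, -0.04, -0.21, 0.24 and 0.18 in heterozygous mice, a difference of means of 0.09.

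Some pairs of enzymes followed each other closely over the 10 mice. Of 12 pairs compared, 5 passed an adjusted p of 0.05 by Pearson's r and 4 by Spearman's rho (two-sided permutation tests with 100000 resamples, adjusted over the 12 pairs). Sqle and Idi1 correlated at r = 0.938 (permutation p = 1.00e-05, the smallest these permutations can give; adjusted 1.20e-04) and rho = 0.964 (permutation p = 5.00e-05, adjusted 5.40e-04). Without heterozygous mice 3 and 5, the farthest from the median of Sqle, r was 0.837 (permutation p = 0.0069, 8 mice). Fasn and Srebf1 correlated at r = 0.969 (permutation p = 3.00e-05, adjusted 1.80e-04) and rho = 0.952 (adjusted permutation p = 5.40e-04), and at r = 0.895 without heterozygous mice 4 and 5 (permutation p = 0.0020).

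Hmgcs1 correlated with Sqle at r = 0.868 (permutation p = 0.0012, adjusted 0.0037; rho = 0.867, adjusted 0.0080) and with Idi1 at r = 0.907 (permutation p = 7.10e-04, adjusted 0.0028; rho = 0.794, adjusted 0.0268). Both rested on heterozygous mice 3 and 5: without them r was 0.617 (permutation p = 0.112) and 0.653 (permutation p = 0.075). Hmgcs1 and Fasn, whose call was lost when heterozygous mouse 5 or any of 7 other mice was left out, correlated at r = 0.721 (permutation p = 0.0197, adjusted 0.0472) but at rho = 0.406 (adjusted permutation p = 0.369), and at r = 0.524 without mice 3 and 5 (permutation p = 0.184). Taking out the genotype means left r at 0.939 for Sqle and Idi1 and at 0.962 for Fasn and Srebf1.

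The other 7 pairs did not pass. Insig1 correlated with Idi1 at r = 0.201 (adjusted permutation p = 0.712) and with Sqle at r = 0.310 (adjusted permutation p = 0.580). Srebf2 and Hmgcs1 gave r = -0.059 (adjusted permutation p = 0.858); its values ranged widely in wildtype and narrowly in heterozygous mice. The stearoyl-CoA desaturases Scd1 and Scd2 gave r = 0.123 (adjusted permutation p = 0.811), and Fasn with Scd1 gave r = 0.190 (adjusted permutation p = 0.712). Fasn with Acaca gave r = 0.600 (adjusted permutation p = 0.132), and Fads1 with Fads2 gave r = 0.496 (adjusted permutation p = 0.242).

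**Figure D4:**
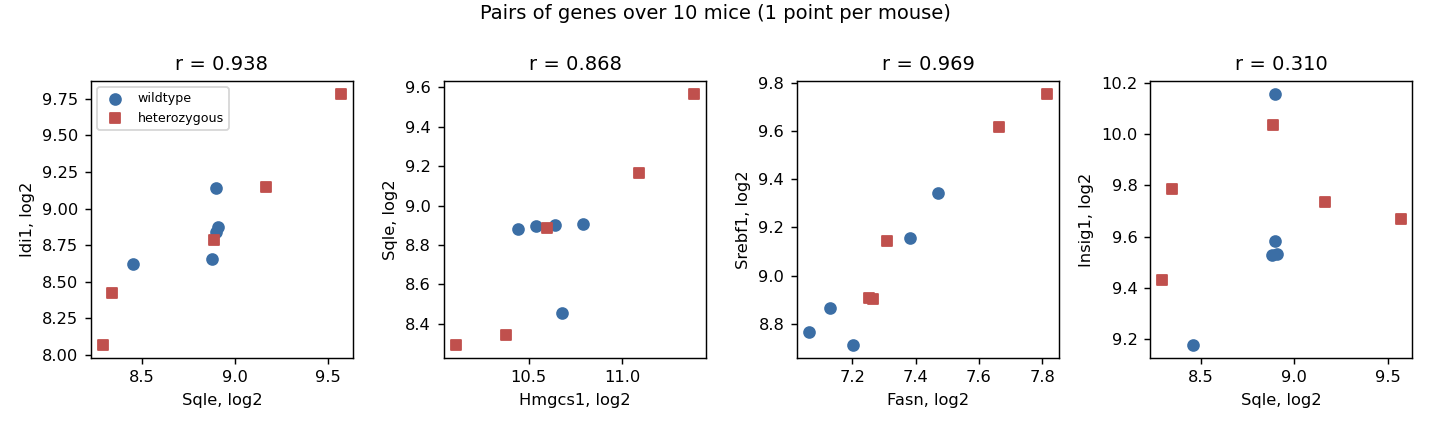
Log2 levels of 4 pairs of genes, 1 point per mouse, blue for wildtype and red for heterozygous, with Pearson's r over the 10 mice. Idi1 rises with Sqle, Sqle with Hmgcs1 and Srebf1 with Fasn, while Insig1 shows no such course against Sqle (r = 0.310).

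Over all 120 pairs of the 16 sterol genes the median r was 0.442, and 25% of pairs exceeded 0.7. Over pairs of all 18567 probe sets the median r was 0.038, and 3.1% exceeded 0.7. The 66 pairs of fatty acid genes had a median r of 0.205. Without heterozygous mice 3 and 5 the median of the sterol pairs was 0.404 with 11.7% above 0.7, and with heterozygous mice 2 to 5 all left out it was 0.286 over the 6 remaining mice. These are descriptions over the same 10 arrays, and the genes of a pair share each array's RNA.

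Further probe sets of the same genes followed those used here in some of the leading enzymes. For Hmgcs1 the 3 further probe sets correlated with the one used at r = 0.954, 0.973 and 0.773, for Idi1 at 0.896, for Elovl6 at 0.921 and for Cyp51 at 0.740. Heterozygous mouse 5 was the highest heterozygous mouse in each of these. The second probe set of Msmo1, which read between 4.90 and 5.49 in heterozygous mice, did not follow (r = -0.159), nor did 1 of 2 further probe sets each of Elovl1 (r = -0.019), Fads2 (r = 0.088) and Sc5d (r = 0.123). Agreement was weaker for Acly (r = 0.416 and 0.576), Scd2 (0.451), Fdft1 (0.414) and Lss (0.325). Over all 22 further member probe sets the median r was 0.582, and 10 exceeded 0.7.

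Each sterol gene was set against a score of the other 15, as a description with no p. Idi1 followed most closely (r = 0.954), then Sqle (0.897), Cyp51 (0.882), Hmgcs1 (0.870), Pmvk (0.832), Tm7sf2 (0.821), Msmo1 (0.783), Nsdhl (0.761), Fdps (0.739) and Hsd17b7 (0.722). Differences between neighbours in that order were not tested. On the probe sets used here, Dhcr7 (0.197), the dim Mvk (0.112) and Sc5d (0.084) hardly followed. Of the fatty acid genes, Scd2 (0.880), Acly (0.826), Acaca (0.820) and Elovl6 (0.810) exceeded 0.7, and Acacb ran the other way (-0.643). Among regulators Srebf1 stood at 0.734, Insig1 at 0.190, Srebf2 at -0.177 and Scap at -0.672. Of all probe sets, 5.40% exceeded 0.7.

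The genes outside the list whose course was most like the sterol score were Kansl1l (r = 0.957), Golt1b (0.951), Stk26 (0.939), Gpx2 (0.927) and Fastkd5 (0.922), followed by Cep83, Thap12, Nup205, Gtf2e1 and Kdm2b (0.914), out of 10505 genes over 10 mice. Neighbouring pathways were counted list by list. Of 16 further sterol and SREBP target genes 9 were measured, with 5 higher and 4 lower in heterozygous islets, 0 past the adjusted threshold and a median r with the score of 0.338. Of 9 genes of SREBP processing, 6 were higher and 3 lower, and of 10 elongation partners, 7 and 3, all with 0 past the adjusted threshold. The smallest p in these lists were those of Dhdds (0.22, SE 0.15) and Ggps1 (0.17, SE 0.17), both of isoprenoid synthesis, Erlin1 (-0.14, SE 0.10) and Vcp (0.08, SE 0.11), both of protein turnover at the endoplasmic reticulum, and Elovl2 (0.39, SE 0.29) and Hacd2 (0.11, SE 0.09), both of elongation. The r with the score was positive for 5 of 9 genes of SREBP processing, 8 of 10 elongation partners and 10 of 11 genes of lipogenic supply, with medians of 0.304, 0.269 and 0.076 beside 0.123 for all probe sets. Without heterozygous mice 3 and 5 these medians were -0.072, -0.195 and 0.107. That of the further sterol and SREBP target genes was then -0.043. The median thus turned negative in each of these lists but lipogenic supply, which lay below that of all probe sets even with every mouse in. For all probe sets the median without those mice is not given.

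In cholesterol efflux and esterification, 6 of 9 genes were higher, and 0 passed the adjusted threshold. Abcg1, the sterol exporter, had the smallest p of these lists: it read 9.58, 9.27, 9.35, 9.43 and 9.28 in wildtype and 9.60, 9.79, 9.56, 9.72 and 9.94 in heterozygous mice. The highest wildtype mouse lay just above the lowest heterozygous mouse, and the difference was 0.34 (SE 0.10, limma unadjusted p = 0.0075, adjusted 0.9999). Lpcat3, a phospholipid acyltransferase, followed at 0.20 (SE 0.10). In lipogenic supply, 9 of 11 genes were higher. Slc25a1, the citrate carrier, differed by 0.22 (SE 0.10, limma adjusted p = 0.9999). Acsl3, an acyl-CoA synthetase, differed by 0.51 (SE 0.30). Of the fatty acid oxidation genes 5 of 10 were higher, and of the triglyceride genes 3 of 10, with Dgat1 at 0.32 (SE 0.27) and Agpat3 at 0.15 (SE 0.12). Dgat1 read 8.57 in heterozygous mouse 2 and 6.91 to 7.47 in all other mice. Hadhb and Hadha, the subunits of the trifunctional enzyme of oxidation, differed by 0.28 (SE 0.12) and 0.47 (SE 0.21), each with a limma adjusted p = 0.9999.

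Some lipid genes ran against the sterol score, and these were singled out after their values were seen. Mylip, a ubiquitin ligase induced by sterol-sensing LXR receptors, read 7.51, 7.82, 7.91, 7.85 and 7.64 in wildtype and 7.68, 7.98, 8.06, 7.80 and 7.45 in heterozygous mice (r = -0.896 with the score, -0.773 without heterozygous mice 3 and 5). It was highest in heterozygous mouse 3 and lowest in mouse 5, the reverse of Idi1. The rest of its list, cholesterol efflux and esterification, did not share this course. Over that list the median r with the score was 0.170, with 6 genes positive and 3 negative, Abcg1 at 0.381 and Abca1 at -0.249. Pdk4, a kinase that restrains pyruvate oxidation, read 7.54, 7.56, 8.38, 7.60 and 7.11 in wildtype and 7.64, 7.86, 8.57, 7.12 and 6.92 in heterozygous mice (r = -0.862, and -0.716 without mice 3 and 5). Cpt1a, which brings fatty acids into mitochondria, gave r = -0.768, and -0.617 without those mice. Of all probe sets 2.94% lay below -0.7. Of 10 fatty acid oxidation genes 8 had a negative r, with a median of -0.541 and of -0.547 without heterozygous mice 3 and 5, and of 10 triglyceride genes 8 had, with a median of -0.517.

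**Figure D5:**
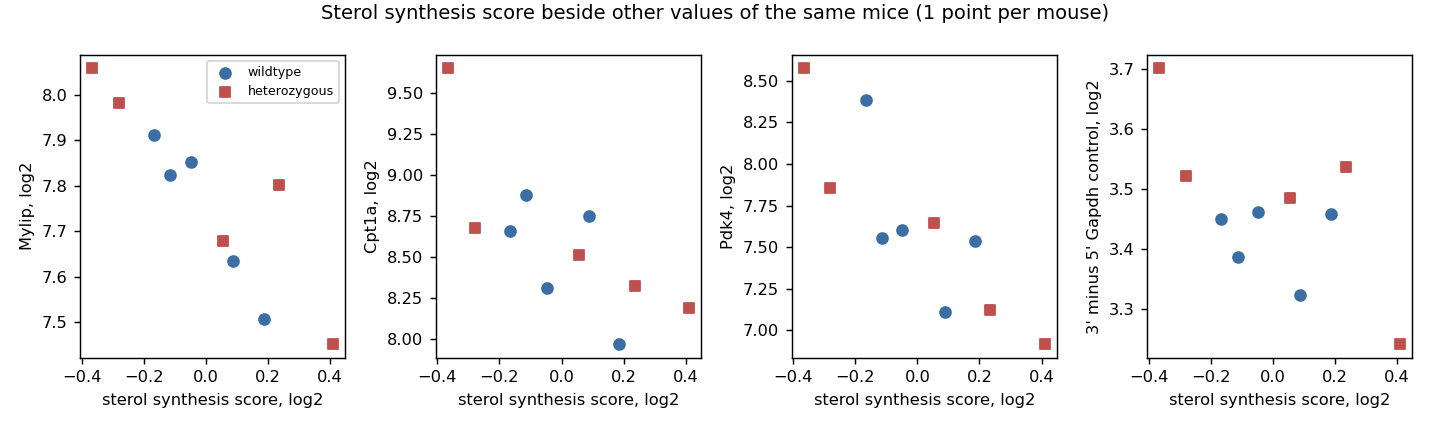
Log2 values of Mylip, Cpt1a and Pdk4 and the 3' minus 5' difference of the Gapdh control against the sterol score, 1 point per mouse, blue for wildtype and red for heterozygous. Mylip falls as the score rises (r = -0.896), and heterozygous mouse 5, at the highest score, has the lowest Gapdh difference (3.24).

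Some markers of other cells and 1 of 2 controls of RNA quality moved with the sterol score, which itself had r = 0.669 with the first principal component. All 9 measured acinar markers correlated negatively with the score, with a median r of -0.726, and the acinar mean was lowest in heterozygous mouse 5. That mean had r = -0.546 with the score. It was moved most by Ctrc, which ran from 11.34 to 15.52 and had r = -0.303. Removing the acinar mean therefore takes out largely the course of Ctrc and says little about the other acinar markers. Those others varied little and lay near the top of the scale, where the highest value on any array was 17.58. How far such bright values reflect acinar content was not tested. The 3' minus 5' difference of the Gapdh control, a sign of RNA length, was highest in heterozygous mouse 3 (3.70) and lowest in mouse 5 (3.24), with 3.32 to 3.54 in the other 8 mice, and its r with the score was -0.658. The same difference of the beta-actin control gave r = 0.214. After removal of the acinar mean the median r of the sterol pairs was 0.444, and after removal of the Gapdh difference 0.481, while the share of pairs above 0.7 was 18.3% and 16.7%, against 25% before. Sqle and Idi1 then correlated at 0.898 in both, and Hmgcs1 and Sqle at 0.815 and 0.764. The adipocyte markers Adipoq, Lep, Cidec and Retn averaged 2.16 to 3.09 and lay at background. The 3 of 10 that were measured, Fabp4, Lpl and Pparg, had list means of 9.66 to 9.97 in wildtype and 9.40 to 10.10 in heterozygous mice, lowest in heterozygous mouse 3 and highest in mouse 5. All 3 had a positive r with the score (0.270, 0.584 and 0.603), and their mean had r = 0.657. After removal of that mean the median r of the sterol pairs was 0.444, with 15% above 0.7. The beta marker mean had r = 0.452 with the score and the alpha marker mean 0.422. After removal of the beta mean the median r of the sterol pairs was 0.513, with 25.8% above 0.7. The part of these markers in the wider heterozygous spread was not tested.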

How the data were processed

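RNA of 10 mouse islet samples was hybridised to 1 short-oligonucleotide array each, per the labels' protocols. The deposited values are log2 signals made with GCRMA by the authors, per the submitters' processing notes, 1 per probe set and array. GCRMA adjusts background by probe sequence and normalizes arrays to one another, which pulls dim probe sets together. The sources used here give no version. The number of arrays limits the precision.

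Groups came from the labels. Probe sets were named through the platform annotation (34945 with 1 symbol, 932 with several, 9160 unnamed, 64 controls left out), and 34754 symbols matched RefSeq. Those above 4 on at least 5 of 10 arrays were kept. Differences were fitted with limma 3.58.1 (lmFit, eBayes) in R 4.3.3, two-sided, adjusted by Benjamini-Hochberg over all 18567 kept probe sets, after the fit was tested on simulated data. A gene was represented by its probe set with the highest mean.

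The members and lists were chosen with earlier results of these data known. All members were named. All 10 values were given for those with the 6 smallest p or 6 largest SDs, with Hmgcs1, Sqle and Srebf2 added, 2 genes of smallest p were picked per pathway list, and Mylip, Pdk4 and Cpt1a were chosen with their values in view. Alternatives were filters, normalizations, a variance prior, array weights, a replicate block, marker means as covariates, a threshold of 0.10, the mean over all probe sets of a gene and leaving out mice. Leaving out heterozygous mice 3 and 5 together, mice 2 to 5, and removing marker means from correlations were added after seeing the data. The replicate numbers were not used to pair mice. Figures were drawn with matplotlib 3.10.9.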

Additional observations from a re-analysis of the deposited data

Results flagged for a closer look

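Within each genotype, the highest and lowest mouse of each measured member, the regulators included, and of the 2 scores was compared with the rest of its group. Of 70 groups examined 4 had a mouse far from the others, and chance gives about 1 in 20. Sqle was lowest in wildtype mouse 2 at 8.46, with the next mouse at 8.88. Acaca was lowest in the same mouse at 7.87, with the next at 8.13. Sc5d was lowest in heterozygous mouse 2 at 7.07, with the next at 7.27. Srebf2 was highest in heterozygous mouse 5 at 5.89, with the next at 5.86, in a group whose SD was 0.02.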

How the results depend on the processing

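0 member probe sets passed the adjusted threshold under any alternative run, a threshold of 0.10 included, and the lowest adjusted p of a member was 0.890. Of 756 member differences under alternatives 97 had the opposite sign, for 20 of the 33 genes, and 13 genes never changed sign, Hsd17b7, Fasn, Srebf1, Mvk, Fdft1 and Pmvk among them. At an unadjusted p of 0.05 in limma, 0 member probe sets passed in the reported fit, 1 without a filter, 3 with the stromal mean as a covariate, 1 without heterozygous mice 2 and 5 and 0 to 2 when 1 mouse was left out. The cause of these changes was not tested. Differences that changed sign were as follows. With the acinar mean as a covariate: Hmgcs1 -0.017, Idi1 -0.17, Fdps -0.0010, Sqle -0.11, Tm7sf2 -0.012, Srebf2 -0.066, Acaca -0.044, Scd2 -0.083 and Elovl6 -0.22. With the adipocyte mean: Idi1 -0.031 and Elovl6 -0.042. With the lymphocyte mean: Idi1 -0.035, Fdps -0.024, Dhcr7 0.062 and Acaca -0.0007. With the stromal mean: Cyp51 0.040, Msmo1 0.074, Nsdhl 0.17, Ebp 0.0042, Dhcr7 0.15 and Elovl5 0.012. With array weights: Idi1 -0.064, Srebf2 -0.031, Acaca -0.0028, Elovl1 -0.039, Elovl5 0.010 and Elovl6 -0.032. With the mean over all probe sets of a gene: Cyp51 0.15, Sc5d -0.0022, Elovl1 -0.041 and Fads2 -0.024. With median centring: Srebf2 -0.013, Elovl1 -0.011 and Elovl6 -0.0052. With quantile normalization: Srebf2 -0.023, Elovl1 -0.0097 and Elovl6 -0.018. Without heterozygous mice 2 and 5: Hmgcs1 -0.017, Idi1 -0.16, Fdps -0.10, Sqle -0.026, Tm7sf2 -0.0029, Dhcr7 0.049, Srebf2 -0.0062, Acaca -0.064 and Elovl6 -0.093, with 2 pairs called.

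Leaving out 1 mouse at a time, the sterol score difference ran from -0.078 to 0.12 and the fatty acid score difference from 0.043 to 0.16. The reported values were 0.022 and 0.092, and they became 0.15 and 0.22 with the stromal mean as a covariate and -0.061 and 0.033 with the acinar mean. The differences that changed sign ran from -0.073 to 0.25 for Hmgcs1, -0.22 to 0.21 for Idi1, -0.054 to 0.19 for Fdps, -0.14 to 0.18 for Sqle, -0.31 to 0.10 for Cyp51, -0.031 to 0.18 for Tm7sf2, -0.40 to 0.087 for Msmo1, -0.11 to 0.079 for Nsdhl, -0.16 to 0.0056 for Ebp, -0.011 to 0.077 for Sc5d, -0.14 to 0.0082 for Dhcr7, -0.13 to 0.10 for Srebf2, -0.025 to 0.18 for Acly, -0.056 to 0.12 for Acaca, -0.023 to 0.34 for Acacb, -0.15 to 0.29 for Scd2, -0.084 to 0.096 for Elovl1, -0.12 to 0.11 for Elovl5, -0.20 to 0.15 for Elovl6 and -0.16 to 0.22 for Fads2. The pair of Hmgcs1 and Fasn lost its call in 11 of 16 alternatives, at r = 0.464 without heterozygous mouse 5. The number of pairs called stayed between 4 and 5, and r ran from 0.884 to 0.954 for Sqle and Idi1, 0.951 to 0.983 for Fasn and Srebf1, 0.464 to 0.866 for Hmgcs1 and Fasn, -0.129 to 0.074 for Hmgcs1 and Srebf2, -0.021 to 0.540 for Fasn and Scd1 and -0.037 to 0.383 for Scd1 and Scd2.

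Mice with the same replicate number did not deviate together (r from -0.284 to 0.108 over the 5 numbers, and 1 of 5 mice matched its own number best). With the replicate number as a block 0 member probe sets passed, 4 pairs were called, and r was -0.238 for Idi1 and Insig1, -0.089 for Sqle and Insig1, 0.629 for Hmgcs1 and Srebf2, -0.233 for Fasn and Scd1 and -0.696 for Scd1 and Scd2. After the block is taken out, the values of a block's mice mirror each other. They were permuted as if separate, so the p behind these 4 calls is too small and the calls cannot be relied on. Hmgcs1 and Srebf2 also gave r = 0.050 with the mean over all probe sets and 0.092 with median centring. With 5 mice a genotype the 95% interval of a difference reached a median of 0.33 to either side.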
